A study of Caenorhabditis elegans with 4 samples.

Results

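The MRG-1 peaks on chromosome V were described along the chromosome, from the peak lists deposited for 2 chromatin immunoprecipitation and sequencing (ChIP-seq) libraries. Members were all peaks listed on V: 471 of the 3158 peaks of replicate 1 and 396 of the 2876 peaks of replicate 2. Another list, deposited for the whole series, held 1913 of its 14483 peaks on V and was set beside them, mainly for structure within the replicate peaks and for the stretches between them. Both libraries came from early embryos of *Caenorhabditis elegans* strain N2 (wild type, a mixed population of males and hermaphrodites, 20 °C), crosslinked in 1.85% formaldehyde for 30 min and precipitated with the antibody SDQ3927, whose target is MRG-1. The series also holds 2 input DNA libraries of the same stage and strain, sonicated in 9 rounds where the ChIP chromatin had 14, but no values of theirs were analysed. Nothing in the labels says that the 2 ChIP libraries came from separate cultures, and their spread may be technical only. Whole embryos were used, so a peak cannot be assigned to a cell type. Read depth is unknown. Coordinates are those of WormBase WS220, 1-based.

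MRG-1 is a chromodomain protein, the worm relative of mammalian MRG15, a family whose chromodomain binds histone H3 methylated at lysine 36, a mark of transcribed genes. In the worm it is a maternal product that the primordial germ cells need. Worm autosomes have a gene-conserved centre with little recombination and arms that recombine more, hold more repeats and carry more methylation of histone H3 at lysine 9. Chromosome V is the longest, and its arms are known for large families of chemoreceptor, nuclear hormone receptor and F-box genes. No gene annotation of WS220 was used, so regions are given by position and no gene is named for them.

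The span of V, measured up to the last base that any of the 3 lists marks, was 20.9 Mb. The centre was its middle 50%, from 5.23 to 15.7 Mb, and each arm the outer 25%. The centre was the more covered part of V in both lists. It held 252 replicate 1 peaks and 263 replicate 2 peaks that covered 8.24% and 9.23% of it (8.74% ± 0.699, SD, n = 2). The left arm held 120 and 72 peaks, covering 6.001% and 3.55% (4.77% ± 1.73). The right arm held 99 and 61 peaks, covering 4.57% and 2.96% (3.76% ± 1.14). The lowest value of the centre lay above the highest of the arms. In peaks per Mb they came close in replicate 1, at 24.1 in the centre against 22.9 on the left arm and 18.9 on the right, and lay apart in replicate 2, at 25.1 against 13.8 and 11.7. The libraries thus differed mainly on the arms. With 2 libraries an exact paired permutation test cannot go below a two-sided p of 0.5, so no test of these differences was run.

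**Figure D1:**
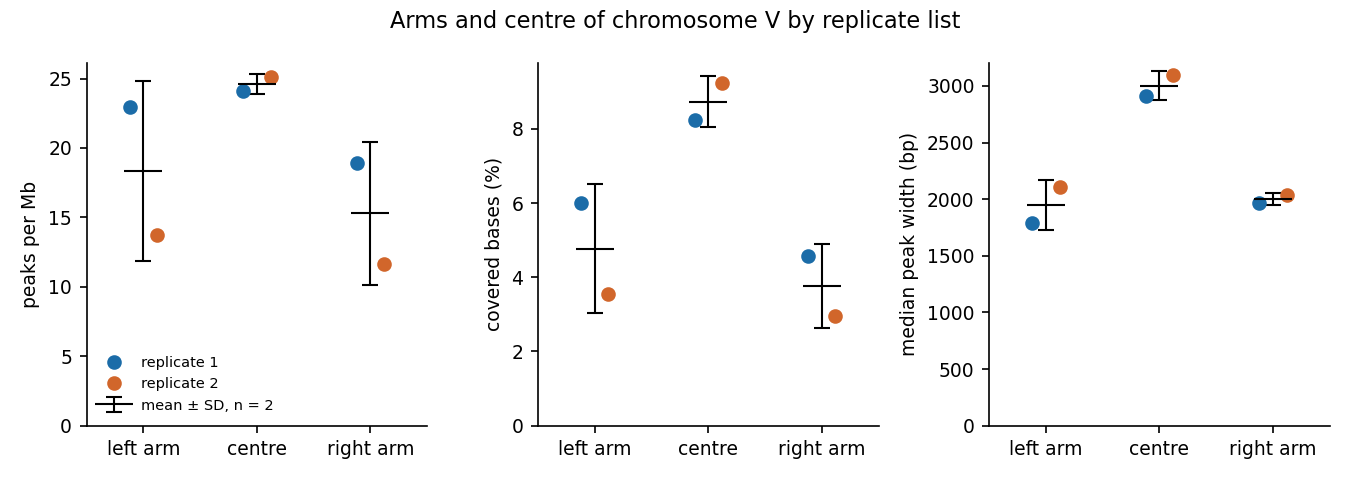
Peaks per Mb, covered bases (%) and median peak width (bp) on the left arm, centre and right arm of V. Points are the 2 replicate lists and bars the mean ± SD (n = 2). The lists lie close in the centre (24.1 and 25.1 peaks per Mb) and apart on the arms (22.9 and 13.8 on the left).

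Along V, coverage in 1 Mb steps was highest near the middle. From 10 to 11 Mb it was 9.84% and 12.01%, and from 12 to 13 Mb 9.35% and 11.4%. It was lowest on the arms, at 2.48% and 1.60% from 3 to 4 Mb and at 3.56% and 1.67% from 19 to 20 Mb. It rose again toward both ends, to 7.62% and 5.06% in the first Mb and 6.50% and 5.50% beyond 20 Mb. The arms were therefore not evenly poor: each had its trough inside and more coverage at the tip than in that trough. On the left the tip was no more covered than the step from 4 to 5 Mb, at 8.59% and 5.07%. Its value rested largely on the stretch from 100001 to 200000, covered at 38.7% and 27.6%. The same Mb had no covered base in either list from 400001 to 700000.

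In windows of 100 kb the centre was more continuously occupied than the arms. No base was covered in 13 and 12 of its 105 windows in replicates 1 and 2. It was 19 and 24 of 52 on the left arm and 17 and 22 of 53 on the right. Of 210 windows, 50 in replicate 1 and 58 in replicate 2 were covered by less than 1%, called poor here, and 49 and 58 of them had no covered base at all, so the threshold of 1% decided almost nothing. That was 23.8% and 27.6% of windows, against 17.8% and 16.2% over all 6 chromosomes. On chromosomes I to IV the share was 7.78% and 8.59%, and on X it was higher than on V, at 45.5% and 29.2%. Both lists were poor in the same 46 windows, 21.9% of V against 12.1% over the 6 chromosomes. Of these 46, 19 were among the 52 windows of the left arm, 17 among the 53 of the right arm and 10 among the 105 of the centre. The 17 include the last window of V, from 20900001 to 20924017, which was shorter than the others. No window of either arm was poor in replicate 1 without being poor in replicate 2, while 5 on each arm were poor in replicate 2 alone.

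Longer runs of poor windows were seen on the arms. All 10 windows of the centre that were poor in both lists stood alone. On the arms 10 runs of 2 or more neighbouring windows were poor in both lists, 5 on each arm. Of the 36 poor arm windows 9 stood alone, 3 on the left and 6 on the right, the short last window among them. The longest run had 7 windows, from 2800001 to 3500000 on the left arm. Runs of 3 windows lay from 400001 to 700000 on the left arm and from 18200001 to 18500000 on the right arm. In the opposite direction, the longest run with at least 1% coverage in both lists had 19 windows, from 9500001 to 11400000, and the next had 17, from 11500001 to 13200000. A single poor window separated these runs.

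**Figure D2:**
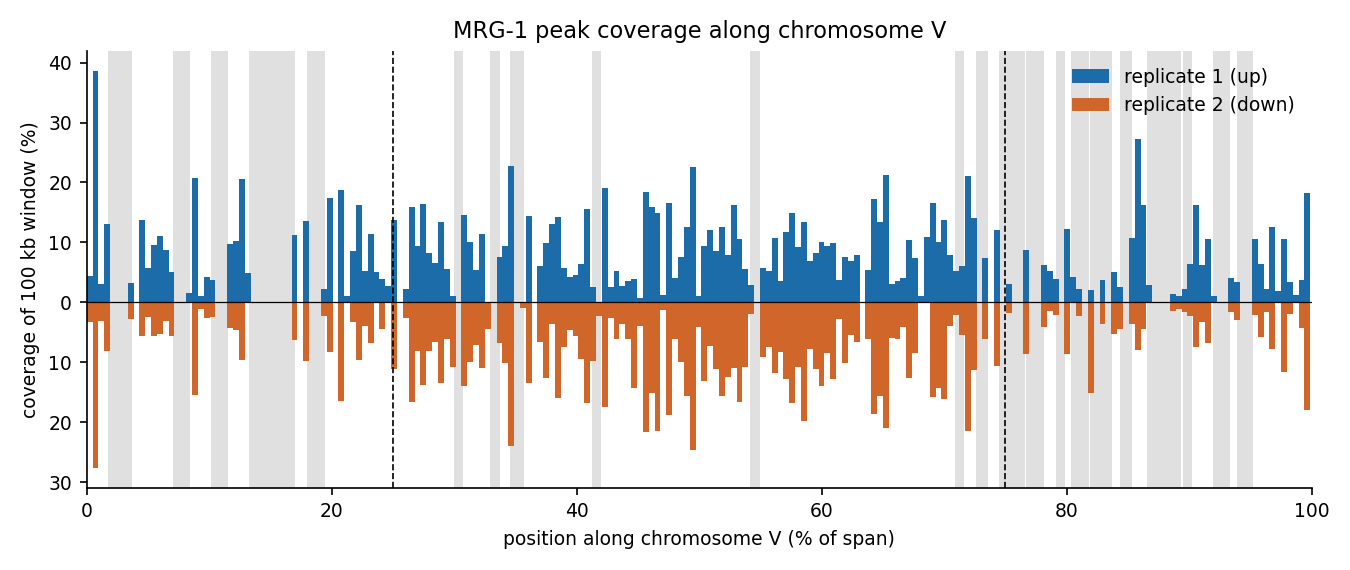
Coverage of each 100 kb window of V (%), replicate 1 upward and replicate 2 downward, by position in % of the span. Dashed lines bound the centre and grey marks the 26 stretches of 150 kb or more free of peaks in both lists, 18 of them on the arms.

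The most covered windows were 4 in the centre and 1 near the left end. The window from 100001 to 200000 came first, at 38.7% in replicate 1 and 27.6% in replicate 2. It was touched by 14 and 8 peaks, up to 7507 and 7295 bp wide, and by 47 series-wide peaks. The strongest of them had a score rank percentile (the rank of the authors' peak score within the whole list) of 91.6 and 98.1. The next were from 10300001 to 10400000 in the centre, at 22.6% and 24.6%, from 7200001 to 7300000, at 22.7% and 23.9%, from 15000001 to 15100000, at 21.1% and 21.5%, and from 13600001 to 13700000, at 21.2% and 21.0%. The lists differed by 11.0 percentage points in the window near the left end and by less than 2 in the other 4. In all, 41 windows reached 10% in both lists, of which 36 lay in the centre, 3 on the left arm and 2 on the right.

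Long stretches with no peak in either list took up a large part of the arms. There were 26 of 150 kb or more, together 6.39 Mb or 30.5% of V. The same count was 4 on I, 8 on II, 0 on III, 10 on IV and 25 on X, with 5.31%, 9.57%, 0%, 14.1% and 32.1% of their spans. The difference of V from these chromosomes was not tested. By their midpoints, 5 stretches lay on the left arm (2.08 Mb), 13 on the right arm (2.90 Mb) and 8 in the centre (1.41 Mb). The left arm had few long stretches and the right arm many shorter ones.

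On the left arm the longest stretch ran from 2778977 to 3563419 (784 kb), the whole gap of replicate 1; in replicate 2 it began earlier, at 2696780 (867 kb). The next ran from 359258 to 772899 (414 kb), from 3761004 to 4063193 (302 kb), from 1477151 to 1767979 (291 kb) and from 2129968 to 2418465 (288 kb). On the right arm the longest ran from 18110467 to 18533272 (423 kb), followed by 16043392 to 16355460 (312 kb), 19229863 to 19520799 (291 kb), 19645935 to 19914813 (269 kb) and 15768075 to 16022282 (254 kb). In the centre no stretch free in both lists exceeded 226 kb, the length of the one from 7238813 to 7465202. In 14 of the 26 stretches both edges lay within 5 kb between the lists. The one beginning at 16043392 was 312.07 kb in replicate 1 and 312.17 kb in replicate 2.

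On the right arm several stretches were parted by a short occupied island. There were 6 such places on V, defined after the values were seen as islands of at most 25 kb between stretches, and all 6 lay between 15.7 Mb and the right end. In 4 of them the island was 1 peak in each list. The smallest, from 18533273 to 18534767 (1.50 kb), stood between stretches of 423 and 155 kb, and ranked at 34.1 and 33.2 in replicates 1 and 2. Another from 16964062 to 16966354 (2.29 kb) parted stretches of 157 and 151 kb, at percentiles of 73.3 and 64.5. The island from 16022283 to 16043391 held 2 peaks in each list and was the only one of the 6 with a peak above the 75th percentile in both. That peak began at 16022283 in replicate 1 and had percentiles of 84.1 and 76.8. The other, beginning at 16039736, had 93.9 in replicate 1 but 51.1 in replicate 2. In the island from 17308259 to 17311998 the lists agreed in width, at 3740 and 3598 bp, but not in rank, at 56.3 and 4.73.

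Isolated strong peaks on the arms were few. A strong peak here is one in the top 25% of scores of its list, and an isolated one has no other peak of its list within 50 kb. Of 118 arm peaks paired between the lists (each the best overlap of the other), 19 were strong in both and 3 of these were isolated in both, or 15.8%. Over all 6 chromosomes 3.17% of strong arm pairs were isolated, that is 7 of 221, so V held 3 of the 7. In the centre of V it was 3 of 51 strong pairs, or 5.88%, and over arms and centres of all 6 chromosomes 2.14%. These counts are small and were not tested.

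The first lay on the left arm, at 772937 to 776203 in replicate 1 and 772900 to 775657 in replicate 2, on the right edge of the 414 kb stretch. Its percentiles were 88.1 and 84.5, and its nearest neighbour lay 128 kb away in replicate 1 and 129 kb in replicate 2. The second lay on the right arm from 19642596 to 19645934, with percentiles of 95.3 and 90.9 and 113 kb of free sequence on its nearer side in both lists. The last lay from 20088094 to 20093286, with percentiles of 92.0 and 83.3 and neighbours at 84.9 and 81.8 kb. All 3 were wider than the median arm peak of each list (1900 bp in replicate 1 and 2057 bp in replicate 2). Their widths were 3267, 3339 and 5193 bp in replicate 1 and 2758, 2993 and 4703 bp in replicate 2. They overlapped 2, 1 and 3 series-wide peaks.

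The strongest peaks of V were found in the centre and on both arms. By the mean percentile of the 2 lists, 5 of the first 8 lay in the centre, 2 on the left arm and 1 on the right. Many top scores are tied at 3100, with 3 peaks of V at exactly that score in replicate 1 and 15 in replicate 2, and few lie above it, so the order of the strongest is uncertain. The first centre peak spanned 8460445 to 8466889 with a score of 3194.53 in replicate 1, and 8458796 to 8466821 with a score of 3100 in replicate 2. The left arm peak from 1866275 to 1876673 scored 3100 in both lists and was 10399 and 10082 bp wide, which also placed it among the 5 widest. Its left edges differed by 6 bp and its right edges by 323 bp. The second on the left arm ran from 4823532 to 4831072 (scores 2959.53 and 3100), and the one on the right arm from 20842288 to 20848340 (2615.61 and 3100), within the last 100 kb of the span. The other 4 of the centre began at 14683087, 14999138, 15081046 and 15391801 in replicate 1, and the last of them ended at 15398073.

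Width and score did not always go together. Across the peaks of V, Spearman's rho between them was 0.80 in replicate 1 (n = 471) and 0.81 in replicate 2 (n = 396), a description across peaks that share a library. The 2 widest shared peaks went against it. The widest, from 9539227 to 9550452 in replicate 1 (11226 bp) and 12127 bp wide in replicate 2, had percentiles of 52.6 and 71.4. The next, from 7227233 to 7238744 (11512 and 11586 bp), had 53.7 and 48.6, and its left edge differed by 6 bp and its right edge by 68 bp between lists. It formed the left border of the longest stretch of the centre. Another, from 7572374 to 7584158 (11785 and 11068 bp), was strong, at 83.9 and 91.7, and the one from 12594441 to 12603713 (9273 and 11174 bp), had 73.9 and 90.4.

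Peaks were wider and ranked higher in the centre than on the arms, by their medians. The same order was seen on each of chromosomes I to IV in both lists, so it was not particular to V. On II, for instance, median width was 3352 and 3569 bp in the centre against 2157 and 2295 bp on the arms. Median width in the centre of V was 2913 bp in replicate 1 and 3095 bp in replicate 2, against 1900 and 2057 bp on its arms together. The difference was 1013 and 1038 bp (1026 ± 17.7, SD, n = 2), larger than the spread between the lists. In the upper 50% of each list by score it was 248 bp in replicate 1 and 1230.0 bp in replicate 2, where the lists lay apart. The left arm, at 1794 and 2105 bp, and the right arm, at 1964 and 2037 bp, were alike in this. Peaks of 5000 bp or more made up 15.1% of V peaks in replicate 1 and 16.4% in replicate 2, against 16.9% and 18.9% of all nuclear peaks. In the centre they were 20.2% and 20.9%, on the left arm 10.8% and 6.94% and on the right arm 7.07% and 8.20%.

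The median score rank percentile was 60.7 and 59.4 in the centre and 42.4 and 47.9 on the arms, a difference of 18.3 and 11.5 points (14.9 ± 4.82). Among the 1000 highest scores of each list the difference was -2.30 points in replicate 1 and 0.90 in replicate 2. Of all V peaks, 53.5% in replicate 1 and 66.4% in replicate 2 lay in the centre. Among those with a percentile of up to 25 it was 42.7% of 103 and 56.0% of 84. Among those above 75 it was 66.0% of 106 and 74.2% of 97.

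Most V peaks were found in both lists, but which peaks were not depended on the part of the chromosome. A peak counted as shared if 1 or more of its bases lay in a peak of the other list. In replicate 1, 341 of 471 V peaks were shared (72.4%, exact 95% interval 68.1 to 76.4), against 73.4% of all its nuclear peaks. In replicate 2 it was 337 of 396 (85.1%, 81.2 to 88.5), against 79.8%. These intervals cover counting error only. On the arms 119 of 219 replicate 1 peaks (54.3%) were shared, and 125 of 133 replicate 2 peaks (94.0%). In the centre the order turned, with 222 of 252 (88.1%) and 212 of 263 (80.6%). The arms of I to IV showed the same order, at 59.1% and 89.7%, and their centres too, at 88.3% and 77.9%.

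The unshared peaks were mostly weak. Among V peaks of replicate 1 with percentiles of up to 25, 22.0% of 59 arm peaks (12.3 to 34.7) and 54.5% of 44 centre peaks (38.8 to 69.6) were shared, and in the next 25% it was 32.8% of 67 and 84.0% of 50. Above the 75th percentile 35 of 36 and 69 of 70 were shared. In replicate 2 the lowest 25% of scores held 32 of 37 shared arm peaks (86.5%, 71.2 to 95.5) and 19 of 47 shared centre peaks (40.4%, 26.4 to 55.7). At low scores, then, replicate 1 had many arm peaks of its own and replicate 2 many centre peaks of its own.

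**Figure D3:**
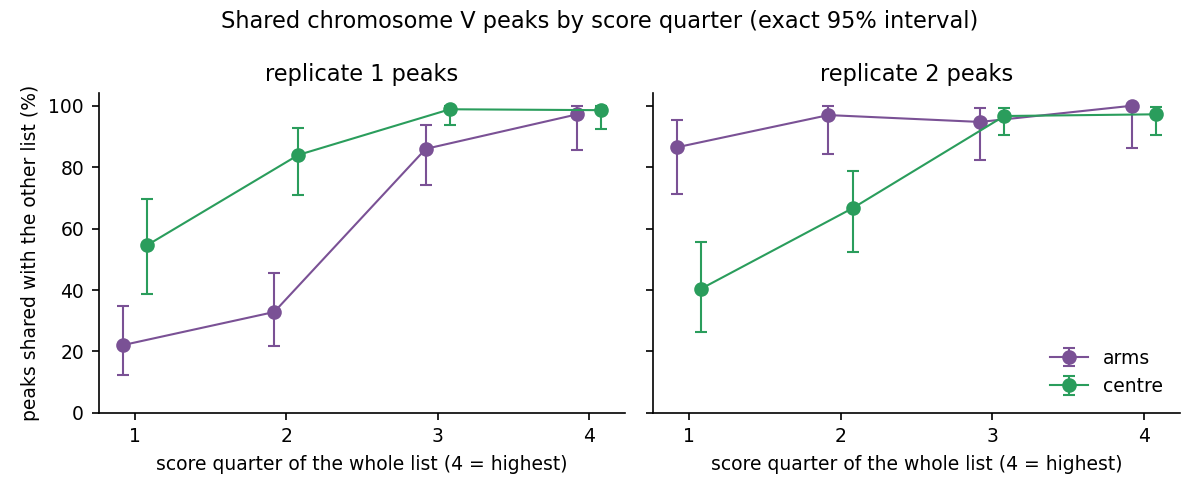
Share of V peaks that overlap a peak of the other list by 1 bp (%), in 4 equal score classes of the whole list, on the arms and in the centre; bars are exact 95% intervals for counting error. In the lowest class 22.0% of replicate 1 arm peaks and 86.5% of replicate 2 arm peaks were shared.

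The replicate 1 peaks of the arms that replicate 2 lacked numbered 100 and were narrow (median 1486 bp). Of these, 74 were within 10 kb of a shared replicate 1 peak. Among the 30 unshared replicate 1 peaks of the centre it was 19 (63.3%). Series-wide peaks met 98 of the 100, and all but 2 of the 219 replicate 1 arm peaks in all. The median gap to the next replicate 1 peak was 6180 bp on the left arm and 9961 bp on the right, against 25102 bp in the centre, although the arms had fewer peaks per Mb. In replicate 2 the gaps were 32960 bp, 43474 bp and 23370 bp. When peaks with gaps of up to 10 kb were joined, a grouping set after the values were seen, 172 of 219 arm peaks of replicate 1 (78.5%) had a neighbour and 65 of 133 of replicate 2 (48.9%). In the centre it was 56.3% and 53.2%.

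The window from 17900001 to 18000000 on the right arm showed this in full. It was covered at 27.2% in replicate 1 and 7.92% in replicate 2, the largest excess of replicate 1 in any window of V. It held 10 replicate 1 peaks, with a highest percentile of 77.0, and 4 replicate 2 peaks, with a highest of 71.1. All 4 were shared, and the series-wide list had 36 peaks there.

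Shared peaks were also drawn differently in the lists. Of the 118 pairs on the arms, 83 were wider in replicate 1 (70.3%, 61.2 to 78.4), and of the 208 in the centre 152 were wider in replicate 2 (73.1%). The median width of replicate 2 relative to replicate 1 was 0.912 on the arms and 1.08 in the centre. Ranks moved the same way: 92 of 118 arm pairs ranked higher in replicate 1, and the median shift from replicate 1 to 2 was -9.37 percentile points on the arms and 2.79 in the centre. On I to IV 72.9% of arm pairs and 28.5% of centre pairs were wider in replicate 1, close to the 70.3% and 26.9% on V. On X the arm pairs went the other way, with 12 of 53 wider in replicate 1. Whether read depth played a part in this difference between the libraries was not tested.

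**Figure D4:**
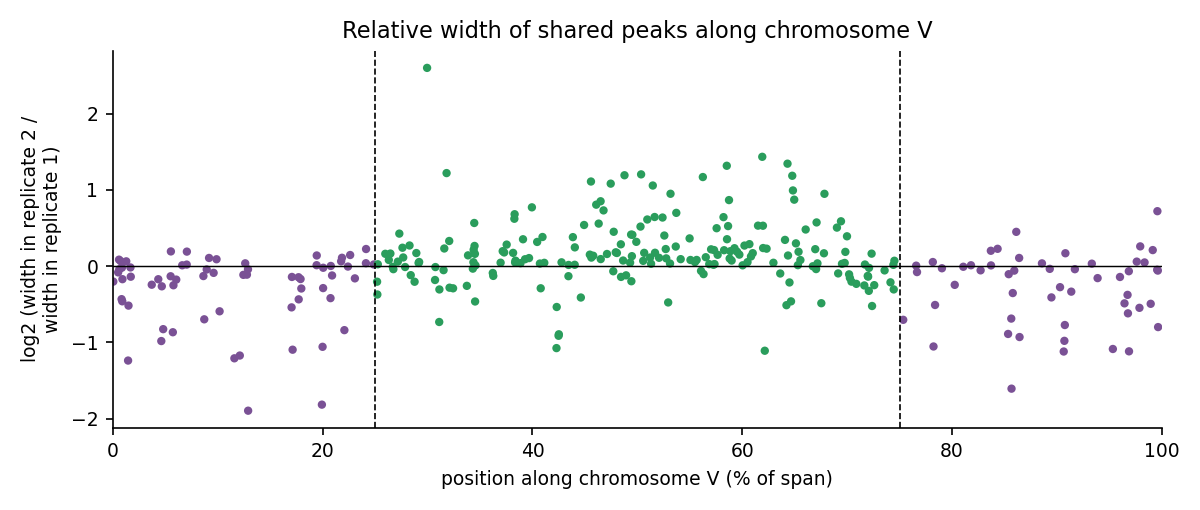
Log2 of the width in replicate 2 over the width in replicate 1 for the 326 shared pairs of V, by position in % of the span (purple, arms; green, centre; dashed lines, boundaries). Points lie mostly below 0 on both arms, where 83 of 118 are wider in replicate 1, and mostly above 0 in the centre.

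Where a pair existed, its edges lay close together. Over 326 pairs the median difference was 141 bp at the left edge and 126 bp at the right edge, and 56 pairs (17.2%) had both edges within 100 bp. The median overlap was 0.857 of the joint length. Spearman's rho between the scores of pairs was 0.78 over V, 0.83 on the arms and 0.79 in the centre, across pairs that are not independent. Splits were rare: 14 replicate 1 peaks met 2 replicate 2 peaks, and 17 replicate 2 peaks met 2 or 3 of replicate 1.

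A few strong peaks were nevertheless in 1 list only. Above the 75th percentile these were 2 of 106 in replicate 1 and 2 of 97 in replicate 2. The strongest was in replicate 2, from 9338106 to 9347618 in the centre (9513 bp), with a score of 3100. The closest replicate 1 peak lay 1.61 kb away, and series-wide peaks covered 93.0% of it. The next in replicate 2 ran from 14417320 to 14425764 (8445 bp, percentile 87.3, 78.0% inside series-wide peaks). On the right arm a replicate 2 peak from 17119488 to 17132611 was, at 13124 bp, the widest of V in either list and had a percentile of 71.5. A replicate 1 peak ended 0.085 kb before it, and series-wide peaks covered 80.6% of it.

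In replicate 1 the strongest unshared peak ran from 10605242 to 10612864 in the centre (7623 bp, percentile 96.4), 4.97 kb from the nearest replicate 2 peak and 86.4% inside series-wide peaks. The next lay on the left arm from 1214819 to 1219717 (percentile 87.9) and in the centre from 14453061 to 14457954 (71.6). Over all V peaks the median share inside series-wide peaks was 64.6% in replicate 1 and 68.9% in replicate 2.

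The series-wide list resolved the replicate peaks into narrower ones. Its median width on V was 336 bp. Of the replicate 1 peaks on V, 300 (63.7%) overlapped 2 or more series-wide peaks, 164 overlapped 1 and 7 none, and in replicate 2 262 (66.2%), 133 and 1. Inside 1 replicate peak the median gap between neighbouring series-wide peaks was 169 bp in replicate 1 and 170.0 bp in replicate 2. Peaks of 5000 bp or more overlapped a median of 5 in both lists, narrower ones a median of 2. Spearman's rho of width with this number was 0.73 and 0.72, and a wider peak has more room for them.

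The widest shared peak, from 9539227 to 9550452, came first by the sum over both lists, with 13 in replicate 1, the most there, and 14 in replicate 2. Further to the right, the peak from 9638322 to 9645160 in replicate 1 overlapped 9, and its partner in replicate 2, which ran on to 9650293, overlapped 17, the most in that list. The peaks from 6422408 to 6429971 (10 and 9), from 5825183 to 5833404 (9 and 9) and from 11110219 to 11118096 (9 and 9) followed, and all 5 lay in the centre. Others were barely divided: the 11512 bp peak beginning at 7227233 overlapped 4 in both lists, and the strong 6038 bp peak from 15081046 to 15087083 overlapped 1.

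**Figure D5:**
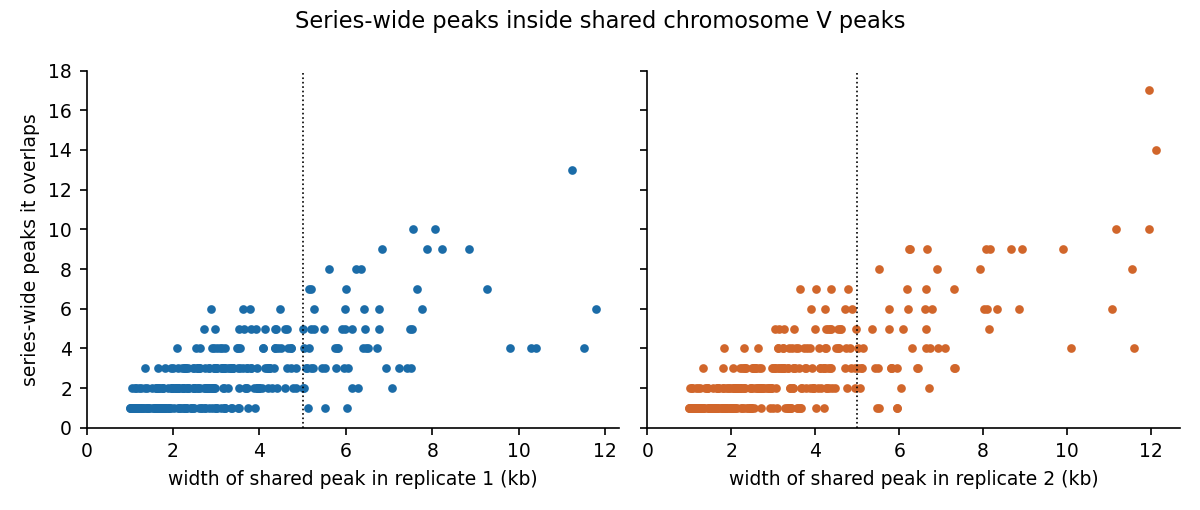
Number of series-wide peaks overlapped by each shared peak of V against its width (kb) in replicate 1 and in replicate 2; the dotted line marks 5 kb. Wide peaks ranged from 1 to 13 series-wide peaks in replicate 1 and reached 17 in replicate 2.

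Seen from the series-wide list, the arms also held more peaks that neither replicate list had. Of its peaks on V, 45.1% overlapped both replicates and 28.9% neither, against 42.4% and 31.5% of all its nuclear peaks. Neither was met by 37.7% of 427 on the left arm (33.1 to 42.5), 39.1% of 358 on the right arm (34.0 to 44.4) and 22.3% of 1128 in the centre (19.9 to 24.8). Those met by replicate 1 alone were 26.5% on the left arm and 28.8% on the right, against 7.18% in the centre. Those met by replicate 2 alone were 0.937%, 2.51% and 16.7%. Peaks met by neither had a median width of 224 bp against 599 bp for those met by both.

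V was less covered than chromosomes II and IV, at 6.50% ± 0.368 (SD, n = 2) against 11.7% ± 0.440 and 9.59% ± 0.408. Its centre-to-arm ratio was the higher in each list, at 1.56 and 2.84. On II the ratio was 1.21 and 1.96 and on IV 1.16 and 1.93. Chromosome III came closest to V, at 1.46 and 2.29. On I the ratio was 1.20 and 1.92 and on X 0.996 and 1.08. The arms of V were covered at 5.28% and 3.25%, against 9.15% and 6.36% on IV. Its left arm was the more covered, with a left-to-right ratio of 1.31 and 1.20. On IV this ratio was 1.58 and 1.42, and on II 0.441 and 0.398. Median width was close, at 2473 and 2673 bp on V, 2533 and 2868 bp on II and 2341 and 2693 bp on IV. The median percentile was 53.3 and 56.0 on V, 54.4 and 57.9 on II and 49.6 and 54.1 on IV. Peaks per Mb were fewer, at 22.5 and 18.9 on V, 35.1 and 31.0 on II and 31.3 and 26.6 on IV. None of these differences between chromosomes was tested.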

How the data were processed

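The 3 lists are used as deposited. The authors' peak score is their only value and no header defines it, so it served only to rank and filter within a list. Per the file headers the build is WormBase WS220, and the source column names MACS for the lists called per replicate; in the series-wide list it names MACS v2. Per the submitters' processing notes BWA and ce10 were used, with no role given. The sources used here give no caller settings, control or pooling. Scores start at 50 in either replicate list and at 1.3 in the other.

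A peak belongs to an arm or the centre by its midpoint, and coverage counts bases. Percentiles rank the score within the whole list, ties sharing a mean rank. Pairs are mutual best overlaps. Coordinates of the gene table supplied, for another build, were not used, and no sequence is shown because no genome of WS220 was given. Named regions followed a written rule: the 8 strongest and 5 widest shared peaks, isolated strong arm peaks, stretches of 150 kb or more free in both lists, extreme windows, the 5 shared peaks with most series-wide peaks and the 3 strongest unshared peaks per list. Windows with the largest difference between lists, islands and 10 kb groups were chosen after their values were seen. The members and lists were chosen with earlier results of these data known. Values are given per list, with exact binomial intervals and no test across peaks or windows, since peaks are not replicates. Alternatives were other boundaries, windows, overlap rules and score thresholds, the series-wide list and each replicate left out. Procedures were tested on simulated data and gave back the planted coverage and overlaps. Software was matplotlib 3.10.9, pandas 2.3.3, scipy 1.17.1 and numpy 2.4.6 under Python 3.11.15.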

Additional observations from a re-analysis of the deposited data

Results flagged for a closer look

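Series-wide peaks were present inside the stretches of V that both replicate lists left free, a signal in a list outside the main comparison. The 26 stretches held 90 of them, which covered 0.423% of these stretches against 5.74% of V as a whole. The stretches were chosen to hold no replicate peak, so a lower coverage than over V was set by that choice. The 90 peaks had a median width of 243 bp against 336 bp over V. Their median score rank percentile within the series-wide list was 49.7 against 50.9. Among all 552 series-wide peaks of V that met neither replicate list, these 90 included, the medians were 224 bp and 34.0. By arm, 38 lay on the left, 34 on the right and 18 in the centre. The stretch from 1477151 to 1767979 held 14 and that from 2129968 to 2418465 held 11, while 2 stretches, from 6268159 to 6422407 and from 19229863 to 19520799, held 0. No input values were analysed, so no control level can be set beside this. With 2 libraries, samples far from the others cannot be sought.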

How the results depend on the processing

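Of 39 alternatives other than leaving out a replicate, 18 moved a value by less than 1 SD of the 2 lists, 20 by more, and 1 reversed. The centre-to-arm ratio of coverage stayed above 1 in the 7 run, from 1.56 in peaks per Mb to 2.71. In peaks per Mb the lists lay apart, at 1.15 in replicate 1 and 1.98 in replicate 2. The median rank percentile of centre peaks minus arm peaks was -0.70 among the 1000 highest scores (-2.30 in replicate 1 and 0.90 in replicate 2). In the top 50% of scores it was 2.00 and in the series-wide list 3.58. The first 2 of these settings filter on the ranked score itself and so narrow its range. Why the sign turned among the 1000 highest scores was not tested. The difference in median width was 784.5 bp with a centre of 40% and 960.0 bp with 60%. It was 739 bp in the top 50% (248 bp in replicate 1 and 1230.0 bp in replicate 2) and 809 bp in the top 1000. In the series-wide list it was 40 bp, with medians of 356 bp in the centre and 316 bp on the arms. The left-to-right ratio was 1.06 with a centre of 60% and 1.36 in the top 1000. Coverage was 4.74% in the top 50%, 3.36% in the top 1000 and 5.74% in the series-wide list. Poor windows made up 44.2% at 50 kb, 12.9% at 200 kb, 38.6% in the top 50% and 53.3% in the top 1000. The mean shared share was 69.7% with 50% of each peak required and 45.8% with midpoints within 250 bp. The longest stretch was 954 kb in the top 1000 and 346 kb in the series-wide list. Fewer peaks or smaller windows are part of several of these settings by construction; elsewhere the cause was not tested. Leaving out a replicate cannot move a mean of 2 by more than 1 SD: coverage ran from 6.24% to 6.76%, the centre-to-arm ratio from 1.56 to 2.84, the left-to-right ratio from 1.20 to 1.31, poor windows from 23.8% to 27.6%, the width difference from 1013 to 1038 bp, the rank difference from 11.5 to 18.3 points and the longest stretch from 784 to 867 kb. The shared share needs both lists and has no such value. No paired analysis was possible because no values of the input libraries, which carry the same replicate numbers, were analysed. Limits set by depth cannot be given, as depth is unknown.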
